A study of Homo sapiens with 16 samples.

Results

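The mRNAs of 8 chaperones and folding enzymes of the endoplasmic reticulum (ER) were followed across pseudouridine sequencing libraries of HEK293T and HCT116 cells: CALR, CANX, HSPA5, HSP90B1, PDIA3, PDIA4, PDIA6 and P4HB. Every position was taken that the deposited tables assign to 1 of these genes and annotate as protein coding. This gave 5253 positions, of which 1599 are uridines (U) and 3654 other bases, out of 719918 positions and 13954 genes in all tables. CANX held the most member uridines with 466, followed by P4HB with 294 and CALR with 235. HSP90B1 held 162, HSPA5 147, PDIA6 124, PDIA4 110 and PDIA3 61. Of the 5253 positions, 5229 fell on exons of the reference transcripts of GENCODE 29 in hg38. The coding sequence held 3745 of them, the 3′ UTR 1066, the 5′ UTR 412 and the stop codon 6.

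The study mapped pseudouridine in fragmented polyadenylated RNA through CMC, a carbodiimide that stays on pseudouridine after alkaline treatment and blocks reverse transcriptase, so that cDNA ends next to the modified base. Wild-type HEK293T, a human embryonic kidney line, and wild-type HCT116, a colorectal carcinoma line, were each sequenced as untreated RNA (CMC-), after CMC (CMC+), and after CMC plus a Terminator exonuclease step (edu-Ψ-seq, here CMC+Terminator). HCT116 cells labelled as DKC1 knockdown, named HCT116-shDKC1 in the design and by that name 1 hairpin line, were sequenced as CMC- and CMC+Terminator. Each of the 8 groups held 2 libraries. The labels list an extra RE+ step in the HEK293T Terminator libraries and XhoI in those of HCT116 and HCT116-shDKC1, all cells were kept in DMEM with FBS, and no label names a hairpin control; the word Lacz stands in the descriptions of both HCT116 populations without explanation. Nothing states that replicates came from separate cultures, so p-values measure the spread between libraries, which may be technical.

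Chaperones of the ER receive nearly every secreted and membrane protein as it enters the lumen. Calreticulin (CALR) and calnexin (CANX) hold glycoproteins by their sugars together with the disulfide isomerase ERp57 (PDIA3), BiP (HSPA5) and GRP94 (HSP90B1) are the Hsp70 and Hsp90 of the lumen, and P4HB, PDIA4 and PDIA6 are disulfide isomerases. Their genes are classic targets of the unfolded protein response, and their mRNAs are abundant in most cells. Pseudouridine is an isomer of uridine made by pseudouridine synthases. Dyskerin, the product of DKC1, is the synthase guided by box H/ACA small nucleolar RNAs.

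The uridines on which the results below turn are printed with 10 bases on each side, 5′ to 3′ as RNA on the strand of the gene, from hg38. The capital U marks the position at which reverse transcription stopped, and a window that meets an exon end is shorter. The CALR gene spans chr19:12938607-12944489 on the plus strand, CANX chr5:179698906-179730925 on the plus strand and PDIA3 chr15:43746392-43773279 on the plus strand. On the minus strand lie P4HB at chr17:81843159-81860694, PDIA4 at chr7:149003062-149028641 and PDIA6 at chr2:10783391-10812844. Positions are counted from the first base of the reference mRNA. No other annotated transcript sequence shared the 31 bases around any of these uridines.
CALR 989, coding exon 7, codon 306, chr19:12940833-12940853: ucccaguaucUaugccuauga
CALR 600, coding exon 5, codon 176, chr19:12940267-12940287: acacugauugUgcggccagac
CALR 660, coding exon 5, codon 196, chr19:12940327-12940347: uccggcuccuUggaagacgau
CALR 1011, coding exon 7, codon 313, chr19:12940855-12940872: aacuuuggcgUgcugggc
CALR 1335, 3′ UTR, exon 9, chr19:12943911-12943931: uagagaggccUgccuccaggg
CALR 1821, 3′ UTR, exon 9, chr19:12944397-12944417: cacuucugggUggggcagugg
CANX 1880, coding exon 14, codon 560, chr5:179726705-179726724: agaagauggUggcacuguca
CANX 2796, 3′ UTR, exon 15, chr5:179729451-179729471: uagcagggcaUggcacgugag
CANX 146, 5′ UTR, exon 1, chr5:179699041-179699061: cggggcaaggUgugcgggcgg
P4HB 240, coding exon 1, codon 6, chr17:81860445-81860465: cgccgcgcucUgcugugccug
P4HB 267, coding exon 1, codon 15, chr17:81860418-81860438: gccgcccuggUgcgcgccgac
P4HB 2190, 3′ UTR, exon 11, chr17:81843562-81843582: gucccccgugUgggagggacg
P4HB 2488, 3′ UTR, exon 11, chr17:81843264-81843284: gacucccgggUggggaggugg
PDIA3 336, coding exon 2, codon 63, chr15:43753834-43753854: ugcaagagacUugcaccugag
PDIA4 1306, coding exon 7, codon 358, chr7:149008207-149008227: uugguuguaaUgcagccugag
PDIA6 35, 5′ UTR, exon 1, chr2:10812800-10812820: cggccgccccUcggaccaccg

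Of the 14 uridines called in HEK293T, 13 were followed by G. The same held for 18 of the 22 member uridines that could be tested, for 62.0% of all tested mRNA uridines and for 79.5% of the called ones. In HCT116, 4 of the 6 called member uridines were followed by G, against 49.9% of all tested and 60.3% of called mRNA uridines. The sequence UNUAA or UNUAG, the motif of the synthase PUS7, lay around 0 of the tested member uridines, against 0.946% of all tested mRNA uridines in HEK293T and 1.13% in HCT116. GUUCNANNC, the motif of TRUB1, lay around 0 of them as well, against 0.0887% and 0%. Both motifs were searched on the mRNA strand only. Among the 1599 listed member uridines 21 lay in the PUS7 motif and 2 in the TRUB1 motif. Those shares, 1.31% and 0.125%, compare with 1.13% and 0.0632% of all listed mRNA uridines.

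A table lists a position only with at least 5 stop reads in its CMC-treated library, at least 1 in the untreated one and a stop percent at least as high with treatment. Stop percent is the reads that end at a position over the reads that cover it. A higher stop percent in treated libraries is therefore partly fixed by the listing, and a missing position is not a position without stops. Library totals implied by the deposited RPM, stop reads scaled to a common depth, were 14900000 to 19100000 in HEK293T, 22500000 to 31300000 in the CMC- and CMC+Terminator libraries of HCT116 and HCT116-shDKC1, and 8700000 and 10000000 in HCT116 CMC+. The cell labels were checked on markers by positions listed. KRT8 had 363 and 400 positions in the 2 HCT116 CMC- libraries, 372 and 378 in HCT116-shDKC1 and 0 in both HEK293T ones, whereas VIM had 384 and 369 in HEK293T and 0 in the others. EPCAM was listed in HCT116 and HCT116-shDKC1 only, at 8 to 11 positions. Of the kidney markers, LHX1 was listed nowhere and PAX2 at 1 position of 1 HCT116-shDKC1 library. PTPRC, CD3E, PECAM1, COL1A1 and ALB, markers of blood, endothelium, fibroblasts and liver, were at 0 in all libraries.

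Member positions were listed in every treated library, and part of them recurred in both replicates. In HEK293T the CMC+Terminator tables listed 1412 and 1454 member positions, 658 of them in both. The CMC+ tables listed 1329 and 1832, with 472 in both. HCT116 CMC+Terminator gave 591 and 531 with 224 shared, and HCT116-shDKC1 354 and 366 with 119 shared. HCT116 CMC+ gave 1221 and 1494 with 405 shared, and here PDIA6 had only 12 and 20 positions while P4HB had 420 and 558.

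Across member uridines covered by at least 20 reads in both HEK293T replicates (246 positions), the median stop percent was 6.28% and 5.93% in the CMC- libraries and 12.6% and 12.3% in the CMC+Terminator libraries. All mRNA uridines treated the same way (24910 positions) had medians of 6.45% and 6.04%, then 12.2% and 12.0%. ER chaperone uridines thus sat at the level of mRNA uridines in this line. Cytosolic and mitochondrial chaperone mRNAs were close by, with 11.7% and 11.5% at 816 uridines after Terminator. Member positions at other bases (382) had 10.3% and 9.92% after Terminator. A stop percent of 20 or more in both Terminator libraries was found at 24 member uridines, or 9.76%, against 9.7% of all mRNA uridines.

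Those 24 uridines were spread unevenly over the mRNAs. CANX held 14 of them among 63 uridines and HSP90B1 held 4 among 15. CALR had 1 among 68, P4HB 2 among 40, PDIA6 2 among 20 and PDIA4 1 among 15. HSPA5 (21 uridines) and PDIA3 (4) had 0. The median stop percent after Terminator ran from 9.95% and 9.88% in CALR to 17.0% and 15.8% in HSP90B1, with CANX at 15.3% and 14.4%. These are descriptions of listed positions, without a test between mRNAs.

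In HCT116, 81 member uridines had medians of 5.71% and 5.51% without CMC and 13.6% and 13.0% with CMC and Terminator. All mRNA uridines, 7347 here, had 4.37% and 3.78% without CMC and 8.11% and 7.46% after Terminator. The members lay above them in both replicates, already in untreated RNA, without a test. The cytosolic and mitochondrial chaperones, at 183 uridines, lay there too, with 11.8% and 11.4% after Terminator. In HCT116-shDKC1 the 39 member uridines had 14.3% and 11% after Terminator, against 7.94% and 6.38% over all mRNA uridines. Without CMC these were 6.86% and 6.02%, against 4.21% and 3.82%. Member positions at other bases had 11.3% and 10.8% in HCT116 and 16.1% and 11.7% in HCT116-shDKC1. In HCT116, 18 of 133 other bases (13.5%) reached 20% in both libraries against 9 of 81 uridines (11.1%).

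Treatment with CMC alone in HEK293T asked which stops rise before any enrichment. A position was tested where all 4 HEK293T tables listed it and 2 or more libraries had at least 10 stop reads, which left 22 of the member uridines: 9 in CALR, 7 in CANX, 4 in P4HB and 1 each in HSPA5 and PDIA6. A position was called where stop reads relative to the library total differed at least 2-fold with an adjusted p below 0.05 (edgeR quasi-likelihood test, replicate as a block, Benjamini-Hochberg over all positions). With CMC alone 0 of the 22 were called, where 0.0296% of tested mRNA uridines were. At an unadjusted p under 0.05 there were 4, all higher, and the median log2 change was 0.57, against 0.31 for mRNA uridines. The share of all mRNA uridines under that p is not given, so the 4 are no result about the members. DESeq2 gave 0 at an unadjusted p under 0.05 and no adjusted p for these positions. The largest uridine changes were 1.44 on the log2 scale (SE 0.32, edgeR adjusted p = 1) at CALR 989 and 1.26 (SE 0.24, edgeR adjusted p = 0.787) at CANX 1184. A G in the 5′ UTR of CANX, position 168, had a larger one, 2.11 (SE 0.41, edgeR adjusted p = 0.21).

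With CMC and Terminator together, stops rose at 14 of the same 22 uridines over the CMC- libraries, and fell at 0. This comparison does not separate CMC from Terminator, and it shares its CMC- libraries with the one before. The comparison over CMC+ further on has CMC on both sides, but cannot tell Terminator from the RE+ step. CALR had 7 of 9 called, CANX 4 of 7, P4HB 2 of 4 and HSPA5 1 of 1, and the PDIA6 uridine was not called. The background was 29.5% of tested mRNA uridines, and the median log2 change was 1.2 for the members against 0.71. Uridines were not alone: 15 of 22 member positions at other bases were called, against a background of 33.4%, with a median of 1.24. The coding sequence held 11 called of 18 tested uridines, the 3′ UTR 2 of 3 and the 5′ UTR 1 of 1. PDIA3, PDIA4 and HSP90B1 had no uridine that passed the filter in HEK293T.

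The count of 14 depended on the scaling. With TMM normalization, which centres the bulk of positions, it was 1, and the split of called uridines over all RNAs moved from 1794 higher and 2 lower to 250 higher and 88 lower. TMM shifted the median log2 change of all uridines from 0.76 to -0.04. Covering reads as the reference ask how far the stop percent rather than the stop reads changed. Against them 7 of 22 uridines were called (background 16.5%) and 4 of 22 other bases (background 13.6%). The listing rule fixed the direction of such a change over CMC- in advance, here and in HCT116 and HCT116-shDKC1, so only its size beside the background can be read. Without Terminator replicate 1 the count was 4, without Terminator replicate 2 it was 2, and without either CMC- library it was 5.

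**Figure D1:**
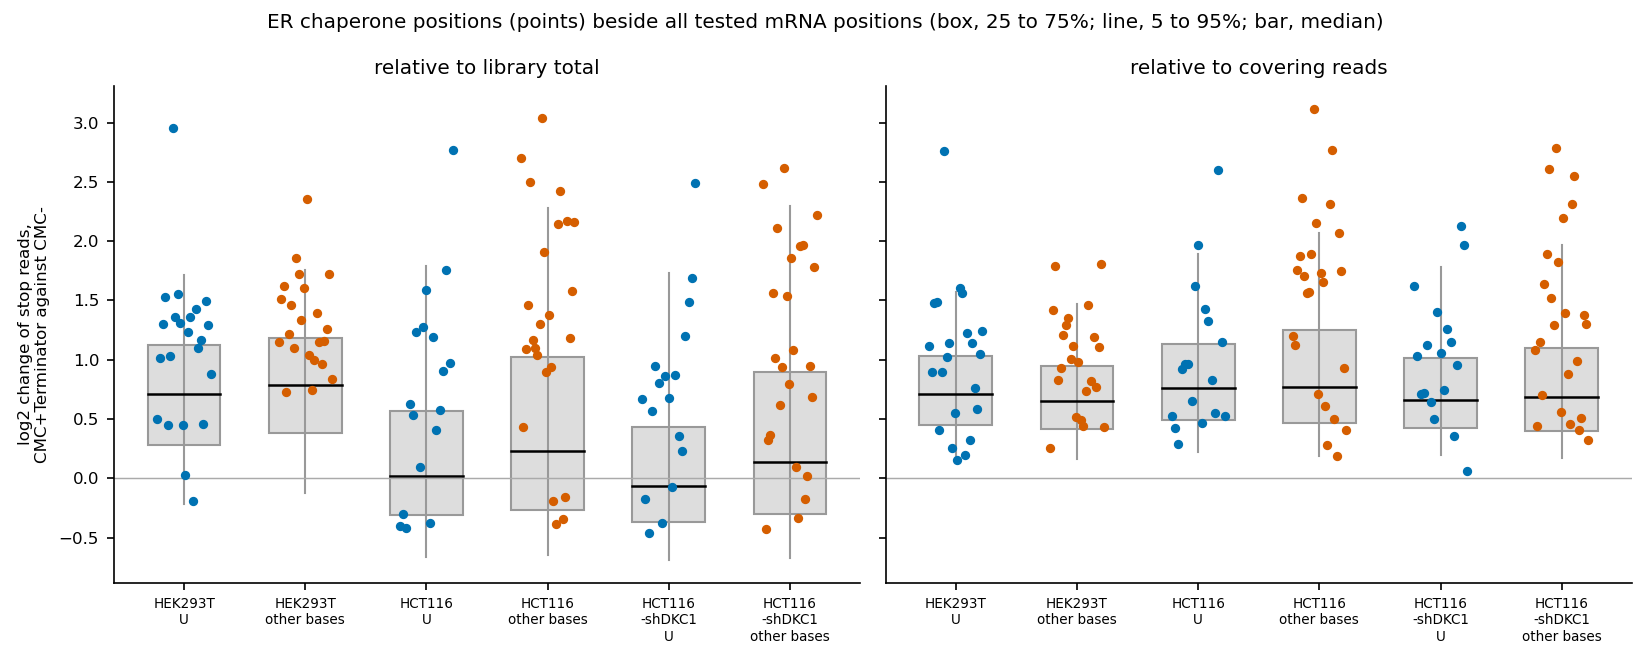
Log2 change in stop reads at member positions (points, uridines and other bases) beside all tested mRNA positions (box 25th to 75th percentile, line 5th to 95th, bar median), relative to the library total on the left and to covering reads on the right. In HEK293T CMC+Terminator the member medians of 1.2 at uridines and 1.24 at other bases lie above the mRNA medians of 0.71 and 0.79.

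CALR, the soluble lectin chaperone, carried the uridine with the largest log2 change over CMC- among those tested in HEK293T. By mean stop percent after Terminator, untested or uncalled uridines of PDIA4, CANX, PDIA6, HSP90B1 and P4HB were higher. At CALR 989 the stop percent was 3.49% and 4.14% in the CMC- libraries, 7.23% and 12.3% in CMC+, and 25.6% and 25.1% in CMC+Terminator. The means were 3.81% ± 0.46 (SD, n = 2), 9.78% ± 3.60 and 25.3% ± 0.36, and the groups did not overlap. Behind the Terminator values stood 21.2 and 23.6 stop reads over 83.1 and 94.1 covering reads. Covering reads were alike without CMC, 86.0 and 80.5, with 3.0 and 3.33 stop reads. The log2 change from CMC- was 2.95 (SE 0.25, edgeR adjusted p = 1.97e-05), and 2.76 against covering reads (edgeR adjusted p = 0.00103). It was called under every edgeR setting and without each of the 4 libraries. Over CMC+ it was 1.51 higher after Terminator (SE 0.20, edgeR adjusted p = 0.000746), a call lost with TMM (0.84, edgeR adjusted p = 0.17).

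The same uridine was not called in HCT116. CALR 989 had 8.99% and 7.50% in CMC-, 10.7% and 13.0% in CMC+ and 14.3% and 16.7% in CMC+Terminator, and 7.25% and 8.82%, then 11.3% and 15.4%, in HCT116-shDKC1. A treated value at or above its own CMC- partner is a condition of listing, so the direction is no evidence here. The log2 change was 0.63 in HCT116 (SE 0.30, edgeR adjusted p = 0.284) and 0.57 in HCT116-shDKC1 (edgeR adjusted p = 0.449), neither called. The difference between HEK293T and HCT116 was not tested, because their tables were made apart and the enrichment steps differ.

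Other CALR uridines moved less. CALR 1335, just past the stop codon, had 6.28% and 3.8% without CMC, 6.82% and 6.13% with CMC and 11.6% and 9.91% after Terminator, and rose by 1.55 (SE 0.20, edgeR adjusted p = 0.00249). Its change against covering reads was 1.15 (edgeR adjusted p = 0.0606). CALR 660 had 6.18% and 2.96%, then 8.63% and 14.2%, then 12.7% and 14.6%. It rose by 1.53 (SE 0.36, edgeR adjusted p = 0.0079), and CMC+ overlapped CMC+Terminator. CALR 600 had 5.29% and 4.44%, 6.08% and 7.81%, and 12.6% and 13.9%, in 3 groups that did not overlap. Its log2 change was 1.30 (SE 0.21, edgeR adjusted p = 0.0153). CALR 1011, in the same exon as position 989, had 3.65% and 4.48%, 5.02% and 7.33%, and 6.66% and 9.48%, with a log2 change of 1.36 (SE 0.22, edgeR adjusted p = 0.0144). Leaving out 1 Terminator library at a time ended the calls at 600, 660 and 1011, with edgeR adjusted p between 0.0543 and 0.143. Leaving out CMC- replicate 1 or 2 ended them at 600 and 1011, and CMC- replicate 2 at 660.

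CANX, the membrane-bound lectin chaperone, had its clearest uridine in the 3′ UTR. At CANX 2796 HEK293T had 9.79% and 5.73% in CMC-, 11.7% and 8.38% in CMC+, and 15.5% and 20.7% in CMC+Terminator. Terminator libraries lay above all others here. The log2 change was 1.43 over CMC- (SE 0.22, edgeR adjusted p = 0.000831; against covering reads 1.22, edgeR adjusted p = 0.0255) and 1.10 over CMC+ (SE 0.22, edgeR adjusted p = 0.00357). Without Terminator replicate 2 the first fell to 0.99 (edgeR adjusted p = 0.0594) and the second to 0.62 (edgeR adjusted p = 0.3). In HCT116 the values were 5.80% and 11.6% in CMC- and 26.1% and 30.4% in CMC+Terminator. In CMC+ it was listed in replicate 1 only, at 19.8% (exact binomial 95% interval 11.2% to 30.9%). The rise of 1.27 with Terminator was called (SE 0.37, edgeR adjusted p = 0.013), and it was the only one of 3 uridines tested in both lines that was called in both. Without HCT116 Terminator replicate 2 (1.13, edgeR adjusted p = 0.142) or CMC- replicate 1 (0.84, edgeR adjusted p = 0.204) the HCT116 call was lost.

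A CANX uridine in codon 560, position 1880, had 9.56% and 3.09% in HEK293T CMC-, 13.0% and 9.56% in CMC+ and 21.0% and 17.6% in CMC+Terminator. CMC- and CMC+ overlapped, and both Terminator values lay above them. Its log2 change over CMC- was 1.36 (SE 0.29, edgeR adjusted p = 0.00782) and 1.56 against covering reads (edgeR adjusted p = 0.0147), lost without Terminator replicate 2 or CMC- replicate 2. At CANX 146 in the 5′ UTR stop reads rose by 1.31 (SE 0.26, edgeR adjusted p = 0.0116) but the stop percent did not follow: 7.91% and 9.40% in CMC-, 19.0% and 10.8% in CMC+ and 11.1% and 9.60% in CMC+Terminator. Covering reads there went from 75.8 and 74.5 to 162.0 and 125.0. Against them the change was 0.25 (edgeR adjusted p = 0.665). The G at CANX 168 had stop reads of 1.5 and 2.5 in CMC-, 6.33 and 11.2 in CMC+ and 11.7 and 8.33 in CMC+Terminator. It rose by 2.36 (SE 0.39, edgeR adjusted p = 0.00162), and by 0.98 against covering reads (edgeR adjusted p = 0.316).

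Compared with CMC alone, 3 of the 22 member uridines were called higher with CMC+Terminator (background 10.2%): CALR 989, CANX 2796 and CALR 1335. Terminator and the RE+ step of these libraries cannot be told apart. At CALR 1335 the change was 1.05 (SE 0.19, edgeR adjusted p = 0.0389). Other bases gave 5 of 22 (background 13.1%). Against covering reads 1 uridine was left, CALR 989 (1.32, edgeR adjusted p = 0.0337; background 1.18%). With TMM 0 were higher and 1 lower, and the split over all uridines went from 1058 higher and 9 lower to 42 higher and 285 lower. Without CMC+ replicate 2 or without Terminator replicate 2 the count was 1.

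**Figure D2:**
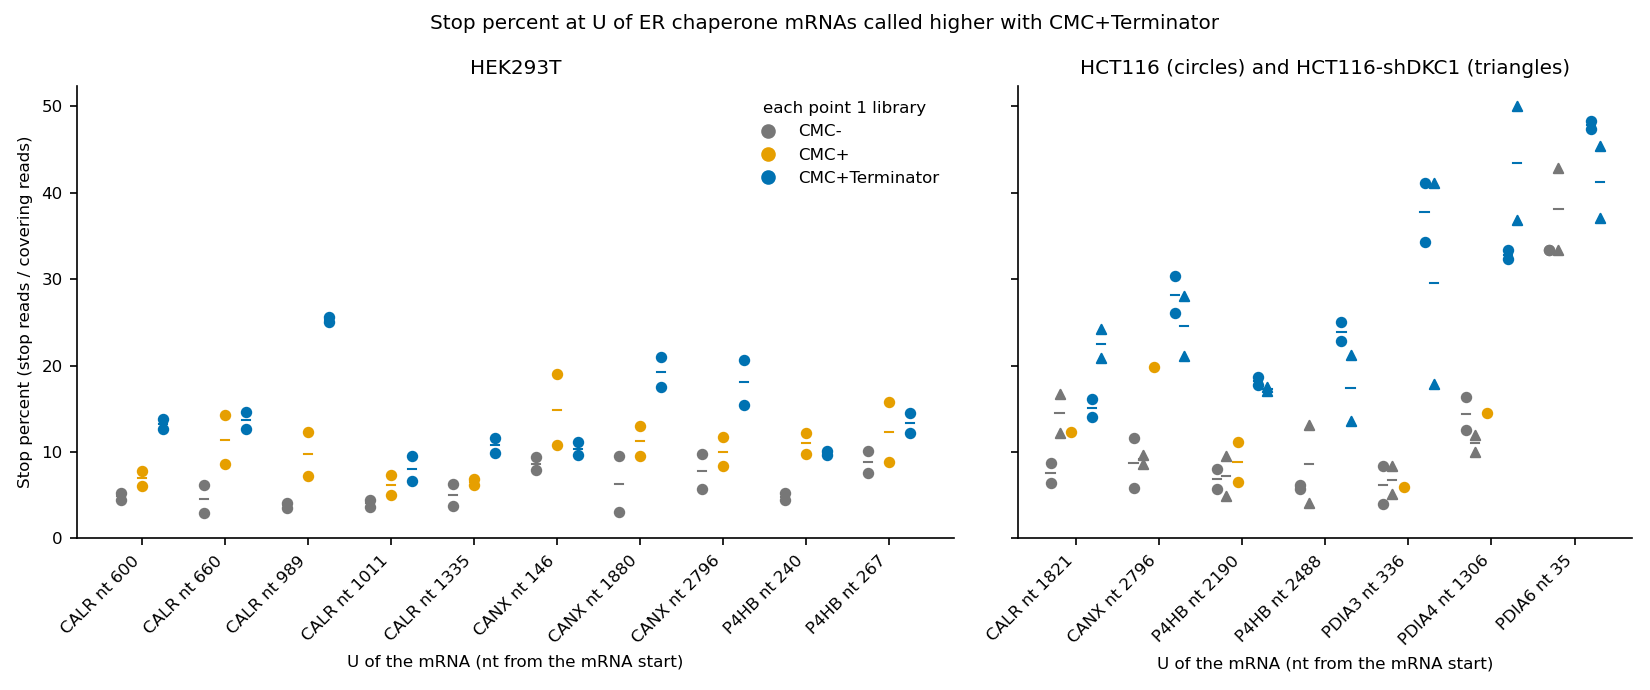
Stop percent in each library (points) at called member uridines, with bars at the mean of 2 libraries. HEK293T (CMC-, CMC+, CMC+Terminator) shows the 10 called uridines with the largest change. HCT116 (circles) and HCT116-shDKC1 (triangles) show CMC- and CMC+Terminator, and HCT116 also CMC+ where listed. Names give gene and mRNA position. CALR 989 stands at 25.6% and 25.1% after Terminator in HEK293T, and PDIA3 336 at 41.2% and 34.3% in HCT116.

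In HCT116 the same test, over positions listed in all 4 Terminator tables, could be made at 17 member uridines, and 6 were called higher (background 13.2%), with a median log2 change of 0.63 against 0.02 for mRNA uridines. These were 2 of 6 in P4HB, 1 of 6 in CALR, 1 of 2 in CANX, and the single uridines of PDIA3 and PDIA6. The single PDIA4 uridine was not called. At other bases 13 of 24 were called (background 23.1%), with a median of 1.24. Against covering reads 6 uridines (background 30.1%) and 16 other bases (background 33.4%) were called. The 3′ UTR held 4 called of 6 tested uridines, the coding sequence 1 of 10 and the 5′ UTR 1 of 1. With TMM the count of uridines was 3, and over all uridines the split went from 1930 higher and 8 lower to 973 higher and 610 lower. Without Terminator replicate 2 it was 3.

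PDIA3, the isomerase that works beside CALR and CANX, had the highest stop percent after Terminator of the uridines called in HCT116 outside the 5′ UTR. At PDIA3 336 HCT116 had 8.33% and 3.97% in CMC-, from 7.0 of 84.0 and 5.0 of 126.0 reads, and 41.2% and 34.3% in CMC+Terminator, from 21.0 of 51.0 and 12.0 of 35.0 reads. In HCT116 CMC+ it was listed in 1 library only, at 5.93%. The CMC- and CMC+Terminator means were 6.15% ± 3.09 (SD, n = 2) and 37.7% ± 4.87. The log2 change was 1.75 (SE 0.38, edgeR adjusted p = 0.00202), and 2.60 against covering reads (edgeR adjusted p = 3.7e-05), called under every edgeR setting and without each library. HCT116-shDKC1 had 5.09% and 8.33%, then 41.2% and 17.9%, a rise of 1.48 (SE 0.47, edgeR adjusted p = 0.0229). Its second Terminator value rested on 5.0 of 28.0 reads, and the call was lost without Terminator replicate 1 or CMC- replicate 1, with TMM (1.05, edgeR adjusted p = 0.125) and without the replicate block (1.45, edgeR adjusted p = 0.0706). In HEK293T, where this uridine could not be tested, it had 7.27% and 3.64%, 8.93% and 6.72%, and 11.1% and 19.5%.

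P4HB, the founding protein disulfide isomerase, had called uridines at its start in HEK293T and in its 3′ UTR in HCT116. P4HB 2488 had 5.66% and 6.20% in HCT116 CMC- and 22.9% and 25.0% in CMC+Terminator, a rise of 1.59 (SE 0.33, edgeR adjusted p = 0.00172) that every edgeR setting and every left-out library kept. HCT116-shDKC1 had 13.2% and 4.08%, then 21.3% and 13.6%, and its change of 0.67 was not called (edgeR adjusted p = 0.286). In HEK293T the values were 5.85% and 4.67%, then 9.69% and 14.2% after Terminator. P4HB 2190 had 8.04% and 5.70%, then 18.7% and 17.8%, in HCT116, with a log2 change of 1.19 (SE 0.33, edgeR adjusted p = 0.0107), lost without Terminator replicate 2 or CMC- replicate 2 and with TMM. The HCT116 CMC+ mean there was 8.86% ± 3.3 (SD, n = 2). HEK293T had 5.12% and 5.94%, then 21.8% and 20.8%, at that uridine, though it was listed in only 1 CMC+ table and so not tested. Its 4 Terminator values in the wild-type lines lay between 17.8% and 21.8%.

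At the 5′ end of the P4HB coding sequence HEK293T stops rose at position 267, in codon 15, and position 240, in codon 6. Position 267 had 10.1% and 7.58%, 15.7% and 8.81%, and 14.5% and 12.2%, with covering reads of 55.1 and 70.3 in CMC- and 100.9 and 116.4 after Terminator. The log2 change of 1.5 (SE 0.24, edgeR adjusted p = 0.00571) became 0.58 against covering reads (edgeR adjusted p = 0.381). Position 240 had 4.38% and 5.24%, 9.82% and 12.2%, and 10.1% and 9.66%, a log2 change of 1.30 (SE 0.25, edgeR adjusted p = 0.0367), with CMC+ and CMC+Terminator overlapping. That call was lost without any 1 of the 4 libraries, and the one at 267 without CMC- replicate 1.

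PDIA4, a larger isomerase with several thioredoxin-type domains, had 1 tested uridine. At PDIA4 1306 HCT116 had 12.5% and 16.4% in CMC- and 32.4% and 33.3% in CMC+Terminator, a log2 change of 0.97 that was not called (edgeR adjusted p = 0.0883) and of 1.15 against covering reads that was (edgeR adjusted p = 0.0343). HCT116 CMC+ listed this uridine in 1 library, at 14.5%. HCT116-shDKC1 had 12.0% and 10.0%, then 36.8% and 50%, and here the rise of 1.69 was called (SE 0.41, edgeR adjusted p = 0.0182). Few reads stood behind it, 3.0 and 3.0 stops in CMC- and 7.0 and 10.0 after Terminator, over 19.0 to 30.0 covering reads. The call was lost with TMM and without Terminator replicate 2 or either CMC- library. HEK293T had 12.8% and 14.8%, then 25.5% and 40.9%, with no test.

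PDIA6, the isomerase also known as P5, had its called uridine 35 bases from the start of the mRNA. Stop reads there were 2.0 and 2.0 in HCT116 CMC- and 14.0 and 9.0 after Terminator, and covering reads went from 6.0 and 6.0 to 29 and 19. The log2 change was 2.77 (SE 0.47, edgeR adjusted p = 0.000368) and 0.53 against covering reads (edgeR adjusted p = 0.51), since the stop percent went from 33.3% in both to 48.3% and 47.4%. HCT116-shDKC1 had 2.49 (SE 0.48, edgeR adjusted p = 0.00103), lost without CMC- replicate 1 (1.69, edgeR adjusted p = 0.0872). Against covering reads it had 0.06. In HEK293T a different PDIA6 uridine was tested, position 902 in codon 252, in the window uccuguggauUaugacggugg. It had 12.2% and 13.1%, 13.6% and 16.9%, and 27.9% and 33.0%, with a log2 change of 0.88 (edgeR adjusted p = 0.0926) and of 1.25 against covering reads (edgeR adjusted p = 0.0388).

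BiP and GRP94 gave few uridines to test. HSPA5 had 1 called uridine in HEK293T, at position 284 in the coding sequence. HSPA5 stops rose there by 1.10 on the log2 scale (edgeR adjusted p = 0.0138), but by 0.32 against covering reads, which was not called. In HCT116 its largest change was at an A, position 464 in codon 87, with stop percents of 1.05% and 1.28% in CMC- and 10.5% and 11.8% after Terminator. That change of 3.04 (SE 0.46, edgeR adjusted p = 0.000165) was as large against covering reads, 3.12. HCT116-shDKC1 had 2.22% and 0.725%, then 9.59% and 9.90%, a rise of 2.62 (SE 0.49, edgeR adjusted p = 0.00124), lost without CMC- replicate 2 (1.97, edgeR adjusted p = 0.091). The A thus moved as much as any member uridine, in both populations. Among listed HSPA5 uridines, position 1788 had 8.32% and 6.48%, then 18.8% and 16.7%, in HEK293T, and position 1056 had 13.1% and 5.88%, then 33.3% and 24.0%, in HCT116. HSP90B1 had 10.1% and 5.15%, then 31.8% and 26.3%, at position 1173 in HEK293T, without a test. Around its position 734 the bases are shared with the pseudogene HSP90B2P, so reads there cannot be assigned with certainty.

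A uridine near the end of the CALR mRNA, position 1821 in the 3′ UTR, was at the edge of the threshold. HCT116 had 6.45% and 8.70% in CMC- and 16.1% and 14.1% after Terminator, a log2 change of 1.24 (SE 0.35, edgeR adjusted p = 0.0492) that was 0.96 against covering reads (edgeR adjusted p = 0.115). The call was also lost with TMM, without the replicate block, and without Terminator replicate 2 or either CMC- library. CALR 1821 was listed in 1 HCT116 CMC+ library, at 12.4%. HCT116-shDKC1 had 12.2% and 16.7%, then 24.2% and 20.8% (0.81, edgeR adjusted p = 0.216), and HEK293T 15.2% and 15.4%, then 15.9% and 20.1%.

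**Figure D3:**
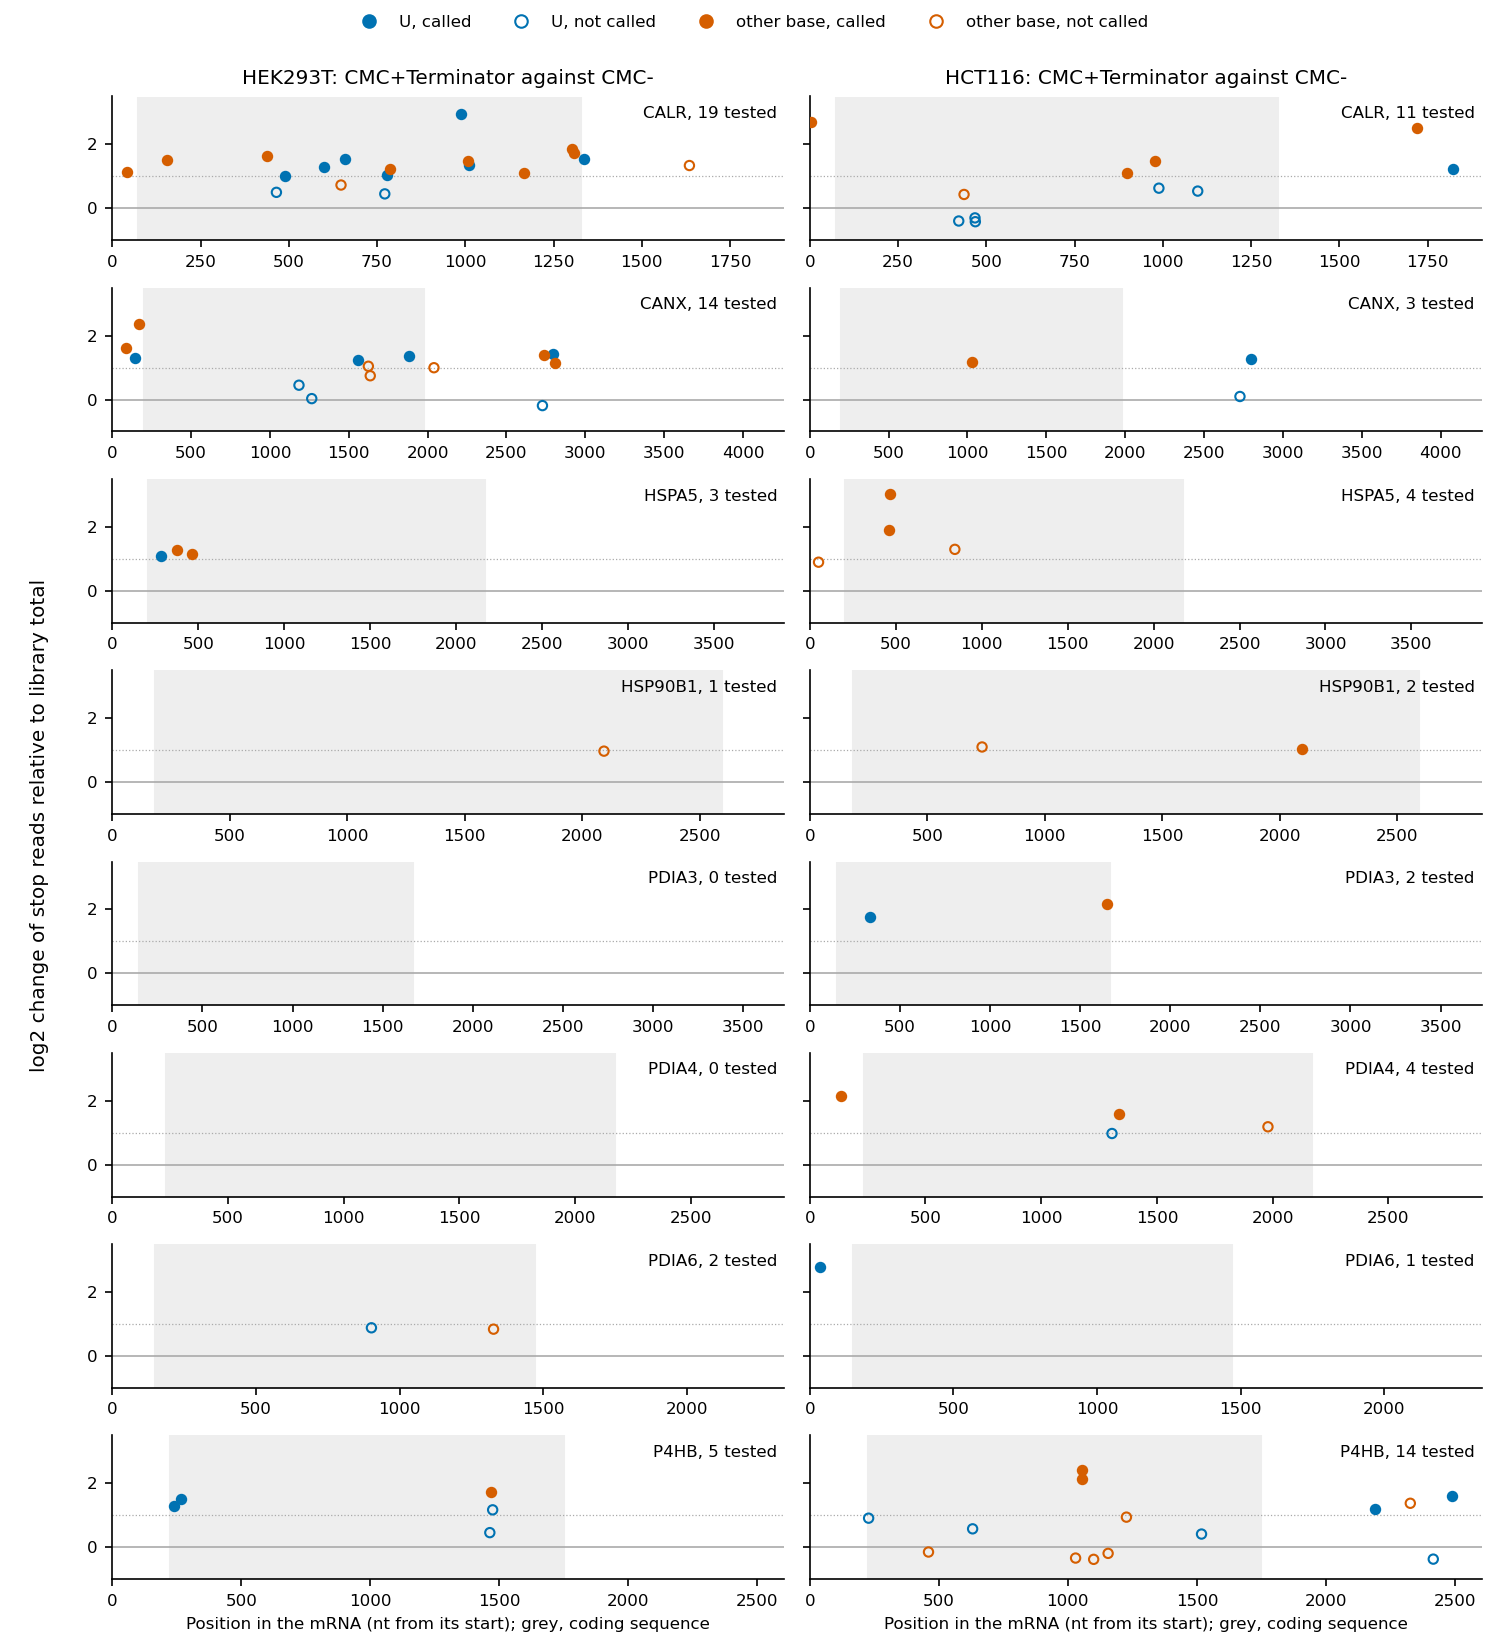
Log2 change of stop reads relative to the library total, CMC+Terminator over CMC-, at each tested uridine and other base along the 8 mRNAs. HEK293T is on the left and HCT116 on the right. The x axis is the position in the mRNA in bases, grey marks the coding sequence and filled points were called. Among uridines, CALR 989 has the highest change in HEK293T, 2.95, and PDIA6 35 in HCT116, 2.77. In HCT116 the A at HSPA5 464 lies higher, at 3.04.

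Knockdown of DKC1 asked which stops depend on dyskerin. DKC1 itself was listed at few positions, 2 and 3 in the HCT116 and 2 and 1 in the HCT116-shDKC1 Terminator tables. At the 1 position that replicate 1 shared, covering RPM was 0.293 in HCT116 and 0.169 in HCT116-shDKC1 without CMC, and 1.2 and 0.733 with CMC and Terminator. Replicate 2 shared 0, so the knockdown rests on the label. In HCT116-shDKC1 3 of 17 member uridines were called after Terminator (background 11%), PDIA3 336, PDIA4 1306 and PDIA6 35, and 9 of 24 other bases (background 20.1%). Against covering reads there were 5 (background 23.1%) and 12 (background 26.3%). The median log2 change at uridines was 0.67, against 0.63 in wild type. With TMM the count was 1 and without CMC- replicate 1 it was 1. Over all uridines TMM moved the split from 1728 higher and 27 lower to 838 higher and 612 lower.

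The difference between the responses was tested as an interaction, and 0 of 17 member uridines were called, where the background was 0%. None had an unadjusted p under 0.05 in edgeR or in DESeq2, and the median interaction was -0.06. PDIA3 336 and PDIA6 35 were called in both populations. At CALR 989 the interaction was -0.06 (SE 0.51), at PDIA3 336 -0.27 (SE 0.68), at PDIA4 1306 0.71 (SE 0.53) and at P4HB 2488 -0.92 (SE 0.53), all with an edgeR adjusted p of 1. The highest was 1.07 (SE 0.58) at CALR 422, where HCT116 had 9.78% and 11.7%, then 16.7% and 14.3%, and HCT116-shDKC1 10.6% and 6.56%, then 20.8% and 32.3%. With SE of 0.51 to 0.68, which may be too small, differences of this size were not detectable at this depth. Stops at 4 uridines called in wild type, CANX 2796, CALR 1821 and P4HB 2190 and 2488, missed the threshold in the knockdown, and this is not a difference between the populations by that test.

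Covering reads, a measure of how much fragmented mRNA was read, were called lower in the knockdown CMC- libraries for 1 ER chaperone mRNA, PDIA3. Covering reads were summed over positions listed in all 4 HCT116 and HCT116-shDKC1 Terminator tables, which gave 31 positions in P4HB, 19 in CALR and 1 to 6 in the others. A read that covers several positions was counted at each, so positions of a gene are not independent. In PDIA3 this touches the close neighbours 1645 and 1647. PDIA3 was 1 of 7 members tested (edgeR, TMM scaling), where 0.556% of 2158 genes were. Its covering RPM per position was 1.90 and 2.39 in HCT116 and 1.21 and 1.23 in HCT116-shDKC1, a log2 change of -0.86 (SE 0.20, edgeR adjusted p = 0.0245) over 3 positions. PDIA3 lost that call with library totals, DESeq2 (adjusted p = 0.134), the best covered position alone, or without HCT116 CMC- replicate 2 or either HCT116-shDKC1 CMC- library (edgeR adjusted p of 0.207 to 0.471). Without HCT116 CMC- replicate 1 the count of called members was 2. In bulk libraries fewer cells with an mRNA and less mRNA per cell cannot be told apart.

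The other 6 members had negative changes that were not called in this fit, which has no replicate block. With a block PDIA4, CALR and P4HB were called lower, but the labels tie wild type and knockdown by replicate number only. The block raised the genes called lower from 12 to 122 of 2158 over all genes. PDIA4 had 1.38 and 1.59 covering RPM per position in HCT116 and 0.797 and 1.05 in HCT116-shDKC1, a log2 change of -0.74 (SE 0.19, edgeR adjusted p = 0.0626). CALR had 3.95 and 3.91, then 3.01 and 2.76, a change of -0.49 (SE 0.13, edgeR adjusted p = 0.0626). P4HB had 4.21 and 4.58, then 3.11 and 3.71, and -0.41 (SE 0.12, edgeR adjusted p = 0.148). In PDIA3, PDIA4, CALR and P4HB both knockdown libraries lay below both wild-type libraries. The share of all genes that separate this way was not counted, so this is a description only. HSPA5 (-0.22), HSP90B1 (-0.20) and CANX (-0.07) overlapped between the groups. PDIA6, covered by 3.0 to 7.0 reads at its single position, fell under the filter. All 7 changes were negative, as were 49.5% of those of all genes. The median of the 7 was -0.41, against 0.0029 over all genes. CANX and HSP90B1 changed sign in some settings.

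After CMC and Terminator 0 of 8 members were called (edgeR; DESeq2 also 0), where 0.0891% of 2244 genes were called lower. At an unadjusted p under 0.05 there were 3 in edgeR (CALR, PDIA4 and P4HB), among 58 of 2244 genes lower. DESeq2 had 2, among 23 of 2244 genes lower. Without HCT116-shDKC1 Terminator replicate 2 the edgeR count of calls was 2. All 8 changes were negative, against 49% of those of all genes, from -0.04 in PDIA6 to -0.68 in PDIA4 (SE 0.22, edgeR adjusted p = 0.517), with CALR at -0.50 (SE 0.17, edgeR adjusted p = 0.532) and a median of -0.35. PDIA4 had 2.19 and 2.23 covering RPM per position in HCT116 and 1.16 and 1.52 in HCT116-shDKC1. CALR had 3.66 and 3.18, then 2.29 and 2.41. In both the wild-type libraries lay above the knockdown ones, as they did without CMC, again without a share over all genes. With a replicate block PDIA4, CALR and P4HB were called lower here too, among 28 of 2244 genes called lower, against 2 without it. HSP90B1 shares 3 of its 4 positions with HSP90B2P, and HSPA5 1 of its 6 with AC105250.1 and AL354702.1.

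**Figure D4:**
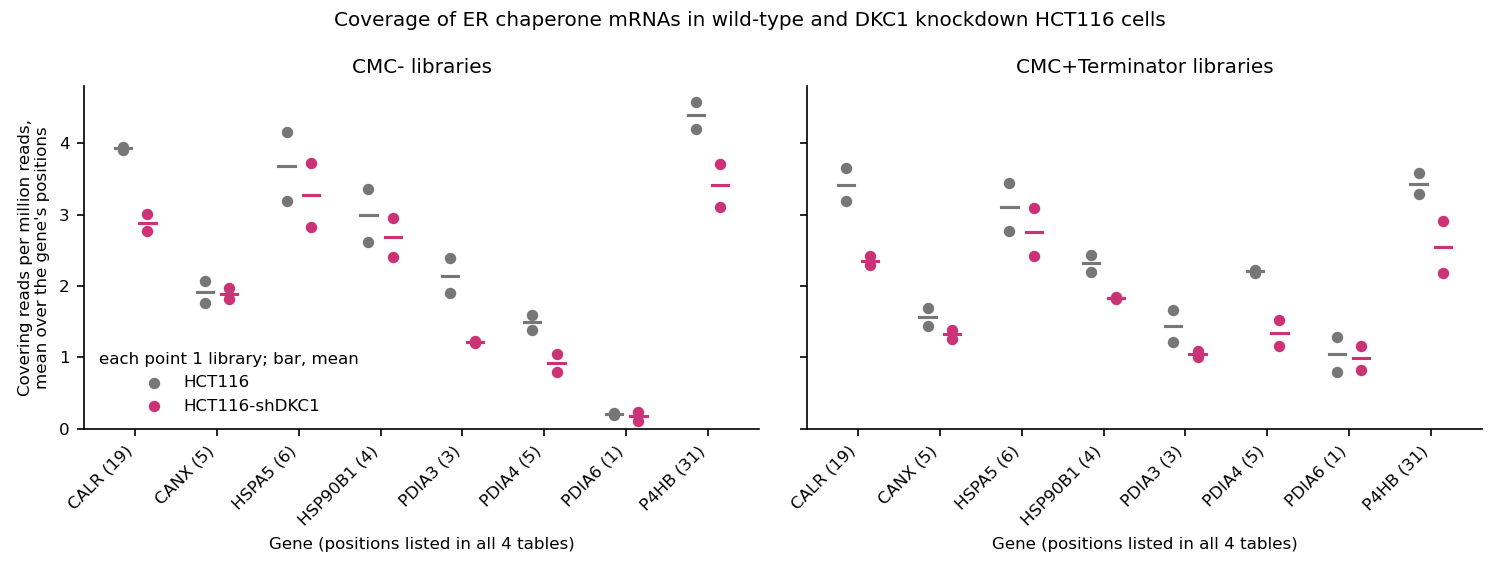
Covering RPM per position for the 8 genes (number of positions in brackets) in each HCT116 (grey) and HCT116-shDKC1 (pink) library, CMC- on the left and CMC+Terminator on the right, bars at the mean of 2 libraries. PDIA3 lies at 1.90 and 2.39 in HCT116 and at 1.21 and 1.23 in HCT116-shDKC1 without CMC.

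Related gene lists were read in the same fits. Of ER lumenal folding genes outside the 8, PPIB alone gave tested uridines in HEK293T, and 4 of its 5 were called, with a median of 1.33. Translocation genes (SEC61B, SSR1, SSR3 and SSR4) had 5 of 6 called with a median of 1.30, N-glycosylation genes (GANAB and PRKCSH) 3 of 3 with 1.51, and ATF4, from the unfolded protein response list, 4 of 7 with 1.09. Cytosolic and mitochondrial chaperones had 26 of 123 with 0.66, near the 29.5% and 0.71 of mRNA uridines. Against covering reads the ER lists had 0 of 5, 1 of 6, 1 of 3 and 2 of 7, and the cytosolic and mitochondrial chaperones 25 of 123, beside the 16.5% of all mRNA uridines, so these counts set no list apart. In the knockdown CMC- coverage 4 of 4 other lumenal genes were lower with a median of -0.52 and 3 of 4 translocation genes with -0.46. N-glycosylation genes had 4 of 4 lower with -0.19, and the unfolded protein response list 1 of 2 with 0.056. None of these was called, and 49.5% of all genes were lower. Cytosolic and mitochondrial chaperones had 11 of 16 lower with a median of -0.09, and HSPB1 was called (-0.72, edgeR adjusted p = 0.00692). With CMC and Terminator the medians were -0.33 in lumenal, -0.13 in translocation and -0.17 in N-glycosylation genes. There the unfolded protein response list had 0.20 and the cytosolic and mitochondrial chaperones -0.01, and no gene of these lists was called.

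The stop codons of CALR and P4HB lie in the PUS7 motif. The first base of the CALR stop codon, in ggacgagcugUagagaggccu, was listed in 1 library, HCT116 CMC+ replicate 1, at 3.35% of 149.3 covering reads (exact binomial 95% interval 1.10% to 7.66%, for counting error only). The first base of the P4HB stop codon, in agaugaacugUaauacgcaaa, had 10.3% and 9.23% in HEK293T CMC- and 13.5% and 13.2% in CMC+, and was not among the tested positions. After Terminator that P4HB uridine had 14.3% in HEK293T replicate 1. In HCT116 replicate 2 it had 5.77% in CMC-, 7.08% in CMC+ and 28.6% after Terminator. That last value rested on 28.0 covering reads (exact binomial 95% interval 13.2% to 48.7%). HSP90B1 had a motif uridine at chr12:103934266 with 17.3% and 15.6% in HEK293T CMC- and 21.0% and 29.4% after Terminator, without a test. The exact binomial 95% intervals of 15.6% (5.43% to 28.5%) and 29.4% (17.0% to 47.6%) overlapped. Another HSP90B1 motif uridine, at chr12:103930409, moved little. It had 30.9% and 33.4% in HEK293T CMC- and 34.55% in Terminator replicate 1. In HCT116 replicate 2 it had 25.3% in CMC- and 26.7% after Terminator.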

How the data were processed

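Stop reads and covering reads per position were deposited by the authors, 1 table per treated library with its untreated partner. Per the submitters' processing notes, cutadapt 2.8, STAR and the hg38 genome were used, and other steps are not given in the sources used here. The deposited values of the HCT116 and HCT116-shDKC1 Terminator tables are whole counts. Those of the other deposited tables are estimated counts with fractions, which were rounded before the count tests. The authors also gave RPM of stop reads, from which each library total was taken.

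Groups came from the labels, and the table columns from their sample names. In the 2 HCT116 CMC+ tables the untreated columns match no label, so 22 columns of per-sample values were not used and CMC+ was not tested in HCT116. Positions were assigned to genes by the deposited annotation, and checked against GENCODE 29 exons (5229 of 5253 placed, 0 base mismatches). The HEK293T CMC- libraries occur in both kinds of table.

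Stops were tested with edgeR 4.0.16 in R 4.3.3 (quasi-likelihood, library totals, replicate as a block) over all positions listed in all tables of a cell line where 2 or more libraries had at least 10 stop reads, with Benjamini-Hochberg adjustment, an adjusted p below 0.05 and a 2-fold change. The interaction used the 8 HCT116 libraries. Gene coverage was tested with edgeR, TMM scaling and no block. Named positions were, per comparison, up to 10 called uridines with the largest change (the 3 largest where fewer than 3 were called) and the other base with the largest change, and per gene and cells the uridine with the highest Terminator stop percent. HSPA5 284, the stop codon uridines and those at chr12:103934266 and chr12:103930409 were named after their values were seen. The 8 genes, the lists and the rule for named positions were chosen with earlier results of these data known. The scripts were tested on simulated data. Alternatives were TMM, covering reads as reference, DESeq2 1.42.0, no block, no filter and each library left out.

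The design pairs each replicate's treated and untreated libraries. Their deviations from group means correlated at 0.24 to 0.43 in HEK293T over 14325 positions, and at 0.257 and 0.449 in HCT116 and HCT116-shDKC1 over 26153 positions. Where an interval is given it is an exact binomial one at 95%, and covers counting error only. Python 3.11.15, pandas 2.3.3, numpy 2.4.6 and matplotlib 3.10.9 were used.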

Additional observations from a re-analysis of the deposited data

How the results depend on the processing

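Among uridines of the 8 mRNAs in HEK293T, CMC+Terminator over CMC- gave 14 calls, 1 with TMM, 7 against covering reads and 2 to 5 when 1 library was left out. Over CMC+ it gave 3, then 0 with TMM, 1 against covering reads and 1 to 2 with 1 library left out. HCT116 gave 6, then 3 with TMM and 3 to 5 with 1 library left out. HCT116-shDKC1 gave 3, then 1 with TMM, 5 against covering reads and 1 to 3 with 1 library left out. Calls for CMC alone in HEK293T and for the interaction were 0 in every edgeR setting run. Without the replicate block the counts were 14, 3, 5 and 2. DESeq2 gave no adjusted p at any member uridine in the 5 stop comparisons, and these are not counted as lost calls. At an unadjusted p under 0.05 DESeq2 had 1 of 22 in HEK293T over CMC- (higher) and 2 of 22 over CMC+ (0 higher). It had 1 of 17 in HCT116 (higher) and 0 of 17 in HCT116-shDKC1. Shares over all uridines are not given for these counts. For covering reads in the knockdown, CMC- gave 1 called gene, then 0 with library totals, DESeq2 or the best covered position, 4 with a replicate block, and 0 to 2 with 1 library left out. CMC+Terminator gave 0, then 3 with a replicate block and 0 to 2 with 1 library left out. Over all genes that block called 122 of 2158 lower in CMC- and 28 of 2244 in CMC+Terminator. The labels tie wild-type and knockdown libraries by replicate number only. Over 2 pairs the deviations of same-numbered libraries correlated at 0.149 to 0.364. Reversed signs came without a call. CANX in CMC- had 0.0232 with the best covered position, and -0.1953 to 0.0651 with 1 library left out. HSP90B1 in CMC- had -0.3901 to 0.0012, and in CMC+Terminator HSPA5 had -0.3671 to 0.1033 and PDIA6 -0.2878 to 0.2657. The causes were not tested. CMC+ over CMC- in HCT116 was not run, for want of a labelled untreated library in those tables. Most library values at the named positions rest on fewer than 10 stop reads, which limits single positions.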

Other observations

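2 further CANX uridines had high stop percents. Position 1347, in codon 383 (uaaaggcaaaUggaagccucc), had 5.19% and 15.7% in HEK293T CMC- and 40.0% and 21.8% after Terminator, over 20.0 and 27.6 covering reads in the latter, and was not among the tested positions. Position 2728, in the 3′ UTR, had high stops without CMC too. In HCT116 they went from 21.6% and 21.4% to 30.4% and 37.0%, and in HCT116-shDKC1 from 31.0% and 22.2% to 33.3% and 40.9%. Its log2 change in stop reads was not called in any population: -0.19 in HEK293T (SE 0.26, edgeR adjusted p = 0.69), 0.10 in HCT116 (SE 0.34, edgeR adjusted p = 0.896) and -0.37 in HCT116-shDKC1 (SE 0.34, edgeR adjusted p = 0.558).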
